A study of Oryza sativa with 239 samples.

Results

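The phosphate starvation genes followed here were 8 genes of rice (Oryza sativa), each named by its identifier: SPX1, SPX2, SPX3, SPX5, SPX6, PHR2, PHO2 and PAP10a. Of these 8 genes, 7 had a row among the 55986 identifiers of the count table, and 5 had enough reads to be among the 28297 genes tested. The 5 were SPX1 (LOC_Os06g40120, chromosome 6), SPX2 (LOC_Os02g10780, chromosome 2), PHR2 (LOC_Os07g25710, chromosome 7), PHO2 (LOC_Os05g48390, chromosome 5) and PAP10a (LOC_Os01g56880, chromosome 1). SPX3 (LOC_Os10g25310) and SPX5 (LOC_Os03g29250) had too few reads for the test, and SPX6 (LOC_Os07g42330) was not analysed here.

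Plants sense phosphate largely through one regulatory circuit. PHR2 is a transcription factor of the MYB type that binds the promoters of starvation genes and switches them on. SPX proteins hold PHR2 in check while phosphate and inositol pyrophosphates are plentiful, and several SPX genes are themselves switched on by PHR2 when phosphate runs short, so that they report on the state of the circuit. PHO2 is a ubiquitin-conjugating enzyme that removes phosphate transporters from the cell and is silenced by the microRNA miR399 during starvation. PAP10a is a secreted purple acid phosphatase that frees phosphate from organic compounds, and in rice it is counted among the genes that PHR2 activates.

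RNA was measured in leaves of 40 cultivars and lines, mostly numbered accessions of the WRC set, with IR64, Koshihikari, KP and Dro1-NIL. The drought group held plants whose pots were drained, and the control group, of 120 libraries, plants kept under irrigation. Each cultivar had 3 libraries per treatment, except Dro1-NIL with 2 drought libraries. The labels of the samples give day 5 and, for the drought group, a moderate drought, as does the design note. The treatment text instead speaks of a severe drought of 9 days starting 14 days after sowing, with 6 days of watering after it. The labels were followed. All plants grew singly in pots of calcined clay in a growth chamber, were fed a culture solution with 182 µM sodium dihydrogen phosphate, and gave their youngest expanded leaf together with the next older one. The files hold no phosphate content of leaf or soil. Nothing in the labels ties a library to a single plant, so p values measure the spread between these libraries.

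Drought libraries held a median of 17 M assigned reads (M, mega) and control libraries 14.8 M. Of the drought libraries, 4 held under 1 M, among them WRC47 replicate 3 with 362 reads. Those of replicate number 3 had a median depth of 6.57 M in drought and 14.4 M in control. The tissue was checked with 4 leaf identifiers, whose summed level had a median of 11700 CPM in drought and 18300 CPM in control libraries, and 2 root identifiers, at 12 and 11 CPM. The leaf sum ranged from 1410 to 43400 CPM in drought and from 3880 to 44100 CPM in control libraries. Of the root identifiers, one never exceeded 3 reads in a library and the other was read in all but 2 libraries. Whether the difference in the leaf sum had a part in the changes given below was not tested, and in whole leaves fewer cells of a type cannot be told apart from less RNA per cell.

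Over the 40 cultivars, the drained plants had less mRNA of SPX1 and of PAP10a, slightly more of SPX2, and levels of PHO2 and PHR2 that did not pass the test. The genes known to be switched on in starvation thus did not all move the same way, and none of the 5 reached a fold of 2. At an adjusted p under 0.05, 22.7% of all tested genes were lower in drought and 21.7% were higher, so 2 members lower and 1 higher out of 5 is read against a background in which 44.4% of genes passed. With a fold of 2 added, 0.785% of genes were lower and 0.541% higher.

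SPX1, an inhibitor of PHR2 and itself a starvation gene, had 6.16 CPM in the lowest drought library, a median of 18.4 CPM and 49 CPM in the highest, against 9.21, 25.2 and 97.8 CPM in control libraries. The ranges of the treatments overlapped widely over all libraries, and within cultivars they overlapped in 29 of 40. As means over cultivars SPX1 stood at 20.1 ± 6.35 CPM in drought and 27.4 ± 10.0 CPM in control leaves (SD, n = 40 cultivars). Within cultivars it was lower in drought in 35 and higher in 5. The log2 change was -0.44 (SE 0.06, a fold of 0.739), with an adjusted p of 1.1e-11 in edgeR's quasi-likelihood test. With libraries of replicate number 1, 2 or 3 alone the log2 change was -0.41, -0.33 and -0.51.

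PAP10a, the acid phosphatase, had 12.2 CPM in the lowest drought library, a median of 23.5 CPM and 54.2 CPM in the highest, against 17.1, 30.8 and 92.6 CPM in control libraries. Here too the ranges overlapped, while the direction within cultivars was nearly uniform, lower in drought in 37 and higher in 3. The mean over cultivars was 25.4 ± 6.07 CPM in drought and 34 ± 9.51 CPM in control leaves (SD, n = 40). The log2 change was -0.41 (SE 0.05, a fold of 0.75; edgeR adjusted p = 1.8e-14). Within replicate numbers 1, 2 and 3 taken alone it was -0.46, -0.31 and -0.41. Like SPX1, PAP10a kept its direction and its call in each of the 17 alternatives run.

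SPX2, the second SPX gene with a measurable level, went the other way. It had 5.26 CPM in the lowest drought library, a median of 23.9 CPM and 73.3 CPM in the highest, against 4.98, 19.9 and 133.0 CPM in control libraries. The highest control library lay far above every drought library, and the medians differed by less than the spread among cultivars. The means over cultivars were 25.3 ± 10.7 CPM in drought and 23.1 ± 12.8 CPM in control leaves (SD, n = 40). SPX2 was higher in drought in 28 cultivars and lower in 12, with a log2 change of 0.16 (SE 0.06; edgeR adjusted p = 0.012). This call was lost without replicate number 2, where the log2 change was 0.11 and the adjusted p 0.25, and in replicate number 1 or 3 alone.

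PHO2, the transporter-removing enzyme, had a median of 71.4 CPM over drought libraries, from 35.4 to 229.0 CPM, and of 62.4 CPM over control libraries, from 37.6 to 157.0 CPM. The ranges overlapped throughout. It was higher in drought in 26 cultivars and lower in 14, with a log2 change of 0.11 (SE 0.05) and an adjusted p of 0.053 in edgeR, just outside the threshold. It passed in 6 of 17 alternatives, among them RLE scaling (0.17, adjusted p = 0.0027), DESeq2 (0.17, adjusted p = 0.0021) and sums per cultivar (0.13, edgeR adjusted p = 0.0072). With RLE scaling and DESeq2 the changes of all tested genes were shifted upward as well, with medians of 0.0567 and 0.0857, against -0.0014 in the main setting.

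PHR2, the activator at the head of the circuit, had a median of 57.7 CPM over drought libraries, from 31.8 to 84.3 CPM, and of 58.8 CPM over control libraries, from 33.3 to 88 CPM. The treatments covered nearly the same range. It was higher in drought in 16 cultivars and lower in 24, with a log2 change of -0.04 (SE 0.02; edgeR adjusted p = 0.15), and its sign turned to 0.02 with RLE scaling. The cultivars' changes had an SD of 0.13 for PHR2, against 0.45 for SPX1, 0.43 for SPX2, 0.32 for PAP10a and 0.27 for PHO2.

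**Figure D1:**
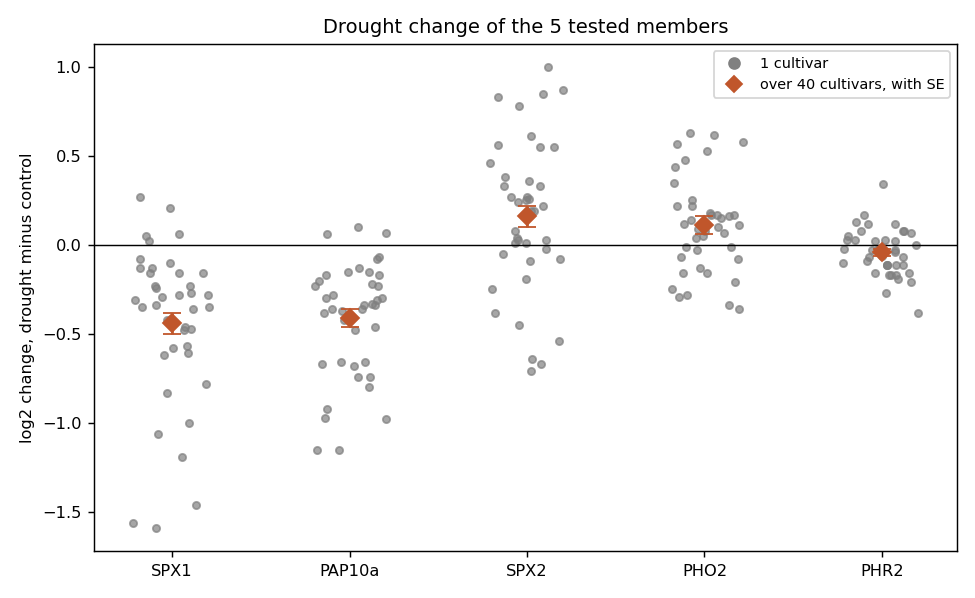
Log2 change, drought minus control, of the 5 tested phosphate starvation genes; each grey point is 1 cultivar of 40 and the diamond with its bar is the change over all cultivars with its SE. SPX1 and PAP10a lie mostly below 0 (diamonds at -0.44 and -0.41), SPX2 and PHO2 spread to both sides with diamonds at 0.16 and 0.11, and PHR2 stays near 0.

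A ratio of 2 genes within a library does not depend on how libraries are scaled. For 5 such ratios, chosen after values were seen, the cultivar means of log2 CPM were compared. SPX1 relative to PHR2 changed by -0.38 ± 0.47 (SD, n = 40) and was lower in drought in 33 cultivars, and PAP10a relative to PHR2 changed by -0.36 ± 0.36 and was lower in 34. Both had a permutation p of 1e-05, the smallest that the resamples allow. SPX2 relative to PHR2 changed by 0.20 ± 0.43 and was higher in 28 cultivars (permutation p = 0.0051), and PHO2 relative to PHR2 by 0.15 ± 0.30 and was higher in 31 (permutation p = 0.0026). The most uniform of the 5 was SPX2 relative to SPX1, higher in drought in 39 of 40 cultivars, by 0.58 ± 0.38 (permutation p = 1e-05). SPX2 had been called higher and SPX1 lower in the same libraries, so this direction followed from the choice of the pair. PHR2 had been seen to change little in the same libraries (-0.04). The ratios relative to PHR2 thus largely restate the changes of the single genes. The adjusted p over the 5 ratios lay between 1.7e-05 and 0.0051, and the adjustment does not cover how the ratios were chosen.

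SPX3 and SPX5, further starvation-induced SPX genes, were nearly silent in these leaves. SPX3 had 4 reads in all drought libraries together, from 3 libraries, and 2 reads in all control libraries, from 2 libraries. This came to 2.11 reads per 1000 M assigned reads in drought (95% exact Poisson interval 0.575 to 5.4) and 1.07 in control (0.13 to 3.88), intervals that cover counting error only. SPX5 had 87 reads in 48 drought libraries and 81 reads in 46 control libraries. Its rates were 45.9 per 1000 M in drought (36.7 to 56.6) and 43.5 in control (34.5 to 54), so the intervals of the treatments overlapped for both genes. Without the filter on low counts, edgeR gave SPX5 a log2 change of 0.02 (SE 0.26, adjusted p = 0.99) and SPX3 one of 0.15 (adjusted p = 0.63). No library held more than 2 reads of SPX3 or 7 of SPX5. For SPX3, with 6 reads in all, a difference between the treatments was not detectable at this depth.

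**Figure D2:**
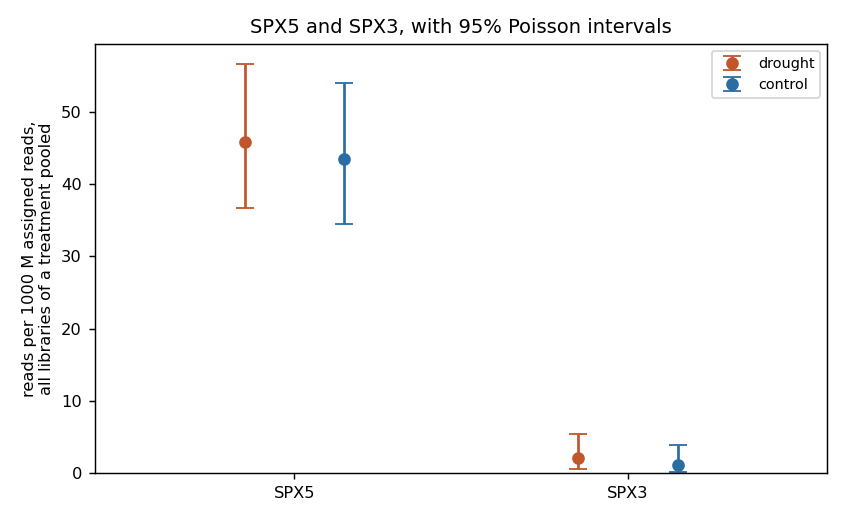
Reads of SPX5 and SPX3 per 1000 M assigned reads, all libraries of a treatment pooled, drought left of control, with 95% Poisson intervals. SPX5 lies near 45 in both treatments (45.9 in drought and 43.5 in control) and SPX3 at 2.11 in drought and 1.07 in control, with intervals that overlap between treatments.

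In single cultivars, 4 of the 200 pairs of gene and cultivar were called at an adjusted p under 0.05 with a fold of at least 2, and all 4 were lower in drought. Over all genes, 0.352% of such pairs were called lower and 0.263% higher, so 4 pairs of 200 exceed that share, but they come from 3 cultivars and 2 genes. They were SPX1 in WRC24, KP and WRC50, and PAP10a in WRC50. No pair was called higher by edgeR in the shared model, nor with each cultivar fitted alone by edgeR or DESeq2. At an unadjusted p under 0.05 there were 8 pairs higher and 24 lower, where 8.46% of all pairs of gene and cultivar had such a p in either direction.

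WRC24 had the firmest SPX1 change. Its drought libraries held 10.6, 11 and 11.9 CPM, against 27.7, 24.6 and 46.5 CPM in its control libraries, so the groups did not overlap. The log2 change was -1.56 (SE 0.33; edgeR adjusted p = 0.00042), and it was called in all 10 alternatives run, with values between -1.73 and -1.27. WRC24 was also one of the cultivars with many called genes, with 2.67% of all tested genes called lower. PAP10a in WRC24 had 23.1, 23.1 and 23.4 CPM in drought libraries, against 44.8, 41.3 and 50.8 CPM in control libraries, without overlap. Its log2 change of -0.97 (SE 0.29; edgeR adjusted p = 0.015) stayed just short of the fold of 2.

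KP had SPX1 at 10.4, 13 and 13.2 CPM in drought libraries, against 45.6, 28.4 and 26.7 CPM in control libraries. These groups did not overlap either, and 0.792% of all genes were called lower in KP. The log2 change was -1.46 (SE 0.33; edgeR adjusted p = 0.0069). Without any one of the replicate numbers the call was lost, at adjusted p values of 0.22, 0.08 and 0.05, though the log2 change stayed between -1.64 and -1.06.

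WRC50 had SPX1 at 14.2, 26 and 10.2 CPM in drought libraries, against 27.6, 25.9 and 97.8 CPM in control libraries. One control library lay far above the others, and the highest drought library stood just above the lowest control library. The log2 change was -1.59 (SE 0.33; edgeR adjusted p = 0.006), but -0.40 with an adjusted p of 1.0 when replicate number 3 was left out. The call was also lost with a replicate block (adjusted p = 0.083) and with WRC50 fitted alone by edgeR (adjusted p = 0.34) or DESeq2 (adjusted p = 0.27). PAP10a in WRC50 had 21.3, 30.1 and 27.7 CPM in drought libraries, against 46, 37 and 91.8 CPM in control libraries. Here every drought library lay below every control library, with a log2 change of -1.15 (SE 0.28; edgeR adjusted p = 0.03), or -0.68 with an adjusted p of 1.0 without replicate number 3. This call was lost in 6 of 10 alternatives, the others being RLE scaling (adjusted p = 0.18), no filter (0.053), a replicate block (0.12), WRC50 fitted alone by edgeR (0.24) and leaving out replicate number 1 (0.13). In WRC50, 0.329% of all genes were called lower.

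The high library of WRC50, control replicate 3, stood out together with control replicate 3 of WRC48. Among the 120 control libraries they ranked 1 and 2 for SPX1, at 97.8 and 88.4 CPM, and 2 and 3 for PAP10a, at 91.8 and 87.2 CPM. For SPX2 they ranked 1 and 4, at 133.0 and 51.9 CPM, whereas for PHR2 they ranked 25 and 70. They held 10.7 and 19.4 M reads, with scaling factors of 0.941 and 0.918, and their leaf marker sums were 22400 and 27200 CPM. The starvation genes were thus high together in 2 libraries of irrigated plants, while other control libraries of the same cultivars held, for SPX1, between 16.2 and 34.8 CPM. With both left out, a choice made after seeing the data, the change over the 40 cultivars was -0.39 for SPX1 (SE 0.05; edgeR adjusted p = 1.1e-11) and -0.38 for PAP10a (SE 0.04; edgeR adjusted p = 1.7e-14).

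**Figure D3:**
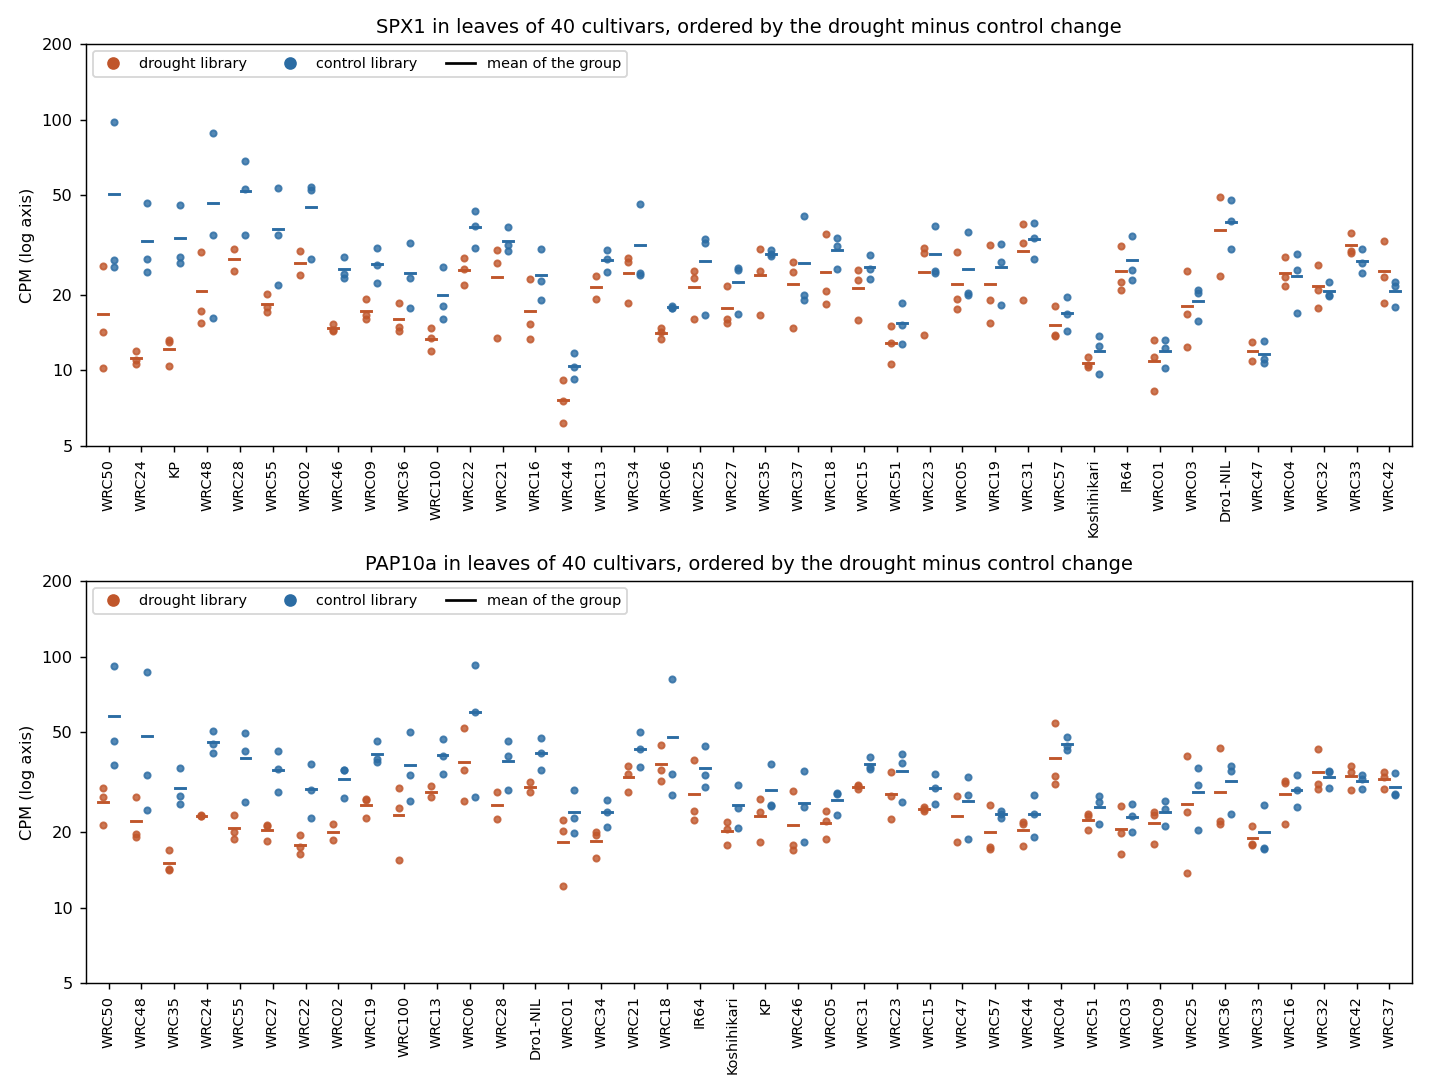
CPM of SPX1 (above) and PAP10a (below) in each library of at least 1 M reads, on a log axis, for 40 cultivars ordered by their log2 change; drought libraries stand left of control libraries, and short lines are group means. At the left WRC50, WRC24 and KP show SPX1 means of 16.8, 11.2 and 12.2 CPM in drought against 50.4, 32.9 and 33.6 CPM in control leaves. At the right WRC33 and WRC42 show higher SPX1 means in drought, 31.5 and 25.0 CPM against 27.3 and 20.7 CPM, with overlapping libraries.

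Groups without overlap were counted in each cultivar. SPX1 had every drought library below every control library of the cultivar in 11 cultivars and above in 0, and PAP10a in 14 and 0. Over all genes 7.24% of pairs of gene and cultivar lay wholly below and 6.86% wholly above for libraries of at least 1 M reads. SPX2 had every drought library above in 10 cultivars and below in 0, PHO2 in 2 and 1, and PHR2 in 1 and 1. With the libraries under 1 M reads included, the counts were 11 below for SPX1, 13 below for PAP10a and 8 above for SPX2, where 6.99% of all pairs lay below and 6.07% above.

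At the upper end of SPX1 stood WRC42 and WRC33, with log2 changes of 0.27 and 0.21 that did not pass the test. WRC42 had 18.6, 32.7 and 23.6 CPM in drought libraries, against 21.7, 17.9 and 22.5 CPM in control libraries, with overlap. For PAP10a the highest changes were 0.10 in WRC37 and 0.07 in WRC42, again with overlapping groups. SPX2 changed most in WRC27 and WRC01, by 1.00 and 0.87, and in WRC27 its drought libraries held 13.2, 18.3 and 12.8 CPM, against 5.19, 9.69 and 7.57 CPM in control libraries. Neither passed, at edgeR adjusted p values of 0.20 and 0.18, although the groups did not overlap. At the lower end of SPX2 were WRC50 and WRC09, with -0.71 and -0.67.

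Whether cultivars differed in their drought response was tested with all cultivar by treatment contrasts together. None of the 5 genes passed in edgeR, where 3.87% of all genes did. SPX1 came nearest with an adjusted p of 0.079, followed by SPX2 with 0.11, and these were the 2 with an unadjusted p under 0.05 (0.0037 and 0.0064), as had 13.2% of all genes. With RLE scaling SPX1 had an adjusted p of 0.045, and DESeq2 was not run for this test.

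Levels in irrigated leaves differed among cultivars for all 5 genes, as for 96.1% of all genes. The edgeR adjusted p values ran from 3e-19 for SPX2 to 0.00021 for PHO2, and that of PHO2 was 0.17 without replicate number 3. SPX2 had the widest range of cultivar means, from 7.49 CPM in WRC27 to 79.3 CPM in WRC50 in control leaves, a ratio of 10.6. Without the high control library of WRC50 its mean was 52.6 CPM, still the highest, and the ratio 7.03. PHR2 had the narrowest, from 37 CPM in WRC42 to 82.2 CPM in WRC57, a ratio of 2.22.

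At its ends, the order of cultivars was partly shared by the treatments. WRC57 and WRC42 were also the highest and the lowest for PHR2 in drought leaves, at 73.1 and 40.1 CPM. WRC44 was lowest for SPX1 in both, at 7.61 CPM in drought and 10.4 CPM in control leaves. WRC06 was highest for PHO2 in both, at 142.0 and 126.0 CPM, and WRC50 for SPX2. The other ends differed between drought and control leaves. The highest were Dro1-NIL and WRC28 for SPX1, and WRC04 and WRC06 for PAP10a. The lowest were WRC06 and WRC27 for SPX2, WRC21 and WRC15 for PHO2, and WRC35 and WRC33 for PAP10a. Agreement over the whole order is not given here. Among the 39 pairs of neighbours in each order, the libraries of neighbours overlapped in all 39 for PAP10a, PHO2 and PHR2 in both treatments and for SPX1 in control leaves. They overlapped in 38 in the other 3 orders. Neighbours in a sorted order have the closest means, so such overlap says little about these genes. Its share over all genes was not counted. The pairs apart were Koshihikari above WRC44 for SPX1 in drought, WRC32 above WRC06 for SPX2 in drought and WRC50 above WRC21 for SPX2 in control leaves. Cultivar took 41.1 to 72.4% of the sum of squares of log2 CPM of the 5 genes and the treatment 0.567 to 16.7%, where the median gene of at least 5 CPM had 54.6% and 1.52%. The treatment's share was 16.7% for PAP10a and 10.8% for SPX1, against 1.24% for SPX2, 1.54% for PHO2 and 0.567% for PHR2.

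Drought changes of SPX1 went with those of PAP10a and of SPX2 from cultivar to cultivar. With libraries of at least 1 M reads, the changes of SPX1 and PAP10a correlated at r = 0.61 over 40 cultivars (Spearman's rho = 0.54) and those of SPX1 and SPX2 at r = 0.55 (rho = 0.58). The permutation p values adjusted over the 10 pairs were 0.0002 and 0.0014 for r, and 0.0019 and 0.0009 for rho. Without WRC24 and KP, the cultivars farthest from the median of SPX1, r was 0.64 and 0.60. The other 8 pairs did not pass, with r between -0.38 for SPX1 and PHR2 (adjusted permutation p = 0.057) and 0.17 for SPX2 and PAP10a. Both genes of a pair come from the same libraries, cultivars can be related by descent, and the high control libraries of WRC50 and WRC48 enter both axes. No r was computed with only those libraries left out.

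Over all libraries the picture was different, and the restriction to 1 M reads was put first after both sets of values were seen. With every library, all 10 pairs passed, at r between 0.39 and 0.83, the pairs of SPX1 with SPX2 and with PAP10a at 0.73 and 0.69. With WRC47, whose drought replicate 3 held 362 reads, left out together with the next farthest cultivar, r was 0.63 and 0.47 for these pairs and between -0.38 and 0.23 for the other 8. Without replicate number 3, only SPX1 with SPX2 passed, at r = 0.54, and SPX1 with PAP10a stood at 0.36 (adjusted permutation p = 0.09).

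**Figure D4:**
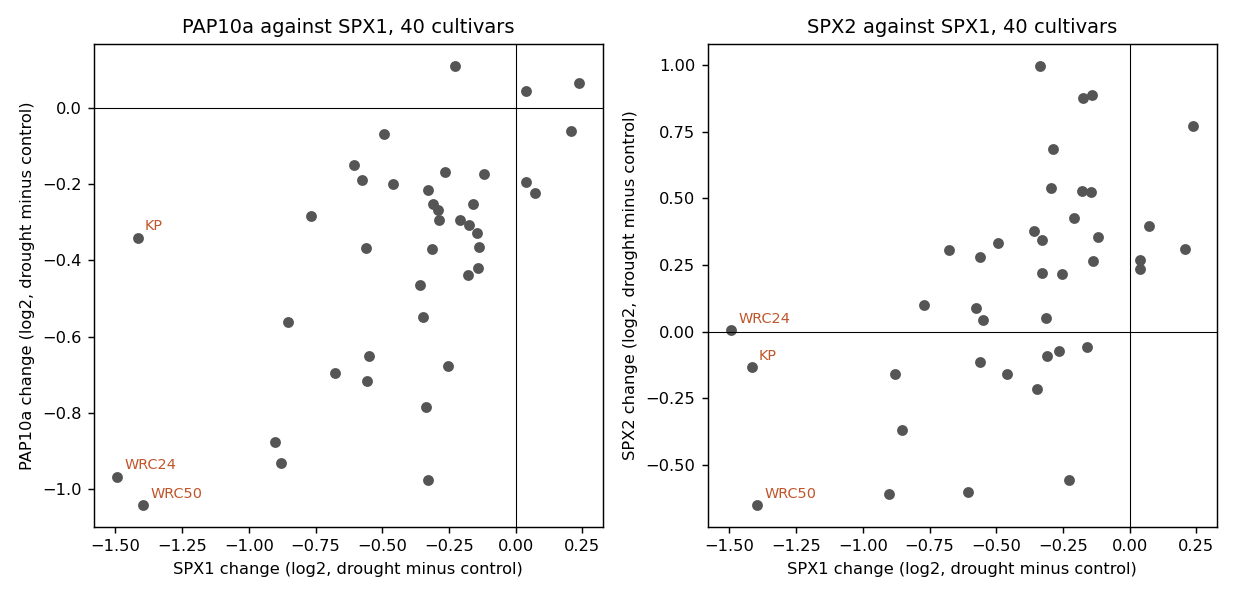
Drought changes (log2, drought minus control) of PAP10a and of SPX2 against those of SPX1, 1 point per cultivar, libraries of at least 1 M reads. Both clouds rise to the right (r = 0.61 and r = 0.55, n = 40), with WRC24, KP and WRC50 at the far left of each.

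Among 14600 genes of at least 5 CPM, the one whose changes were most like those of SPX1 was LOC_Os02g31030, on chromosome 2, with r = 0.86 over 40 cultivars (rho = 0.69) in libraries of at least 1 M reads. It was among the genes compared through its control libraries, with an overall mean of 5.02 CPM made up of 2.67 CPM in drought and 7.46 CPM in control leaves. This identifier was also on the list of further phosphate genes given next. In WRC24 it had 2.08, 1.35 and 1.39 CPM in drought libraries, against 21.9, 14.7 and 41.3 CPM in control libraries, without overlap. In KP it had 2.35, 2.48 and 1.29 CPM in drought libraries, against 36.2, 10.2 and 17.6 CPM in control libraries. In the high control libraries of WRC50 and WRC48 it held 88.1 and 74.1 CPM, ranks 1 and 2 of 120. Ranked among all these genes, PAP10a was number 5 and SPX2 number 12 in likeness to SPX1. The genes most like PHR2, PAP10a, SPX2 and PHO2 were LOC_Os02g47120 (r = 0.84), LOC_Os03g01210 (0.65), LOC_Os07g35979 (0.57) and LOC_Os07g07270 (0.55). With every library included other genes came first for all 5, for SPX1 LOC_Os08g06010 at r = 0.89, and PAP10a and SPX2 were number 12 and number 5 in likeness to SPX1.

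A list of 21 further identifiers of phosphate signalling and transport was drawn up for comparison, and no reference at hand pairs them with names. Of these, 20 were tested over the 40 cultivars, 8 were higher in drought, 7 were lower and 5 did not pass. Their median log2 change was 0.08, against -0.0014 for all tested genes, and the shares stand beside the 21.7% higher and 22.7% lower of all genes. With RLE scaling 9 were higher and 4 lower. Those named next have a mean of at least 5 CPM in each treatment and the largest changes, and were chosen after their values were seen. LOC_Os04g48390 had a mean of 35.2 ± 15.2 CPM in drought and 21.3 ± 14.7 CPM in control leaves, a log2 change of 0.83 (SE 0.08). LOC_Os04g10750 had 28.4 ± 15.1 CPM in drought and 17.1 ± 10.5 CPM in control leaves, a log2 change of 0.80 (SE 0.07). LOC_Os04g46880 had 16.6 ± 9.74 CPM in drought and 33.3 ± 29.6 CPM in control leaves, a log2 change of -0.81 (SE 0.08). The edgeR adjusted p values of these 3 lay between 3e-20 and 1.9e-16, and the list, like the members, held genes that moved in opposite directions. LOC_Os02g31030, which reached 5 CPM only through its control libraries, had 2.67 ± 1.95 CPM in drought and 7.46 ± 8.62 CPM in control leaves.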

How the data were processed

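Messenger RNA from rice leaves was read with a strand-specific library kit, and the authors deposited raw counts per gene identifier, 1 column per library. The tools named in the submitters' processing notes are STAR and featureCounts 2.0.0, with build IRGSP-1.0. The annotation release, the strand setting and the treatment of reads with several positions are not given in the sources used here, so reads of overlapping genes or near copies could be counted to a neighbour. Every column matched a library name, with 0 left over. No reference at hand paired these identifiers with names, coordinates or sequences, so names of members follow the rule that chose them, and chromosomes are read from the identifiers.

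Counts were fitted with edgeR 4.0.16 (R 4.3.3) by its quasi-likelihood F-test after TMM scaling, with a dispersion trend estimated on 2000 genes. The SE of an edgeR log2 change was calculated as its absolute value divided by the square root of the F value. A filter on low counts (filterByExpr, minimum 10, 80 groups of cultivar and treatment) kept 28297 of 55986 identifiers. All adjusted p values in the text are Benjamini-Hochberg values over these genes unless another family is named, with a threshold of 0.05. Drought was compared with control over all cultivars with cultivar as a term, then within each cultivar in a model of 80 means, where a call also needed a fold of 2. Alternatives were RLE scaling, DESeq2 1.42.0, no filter, other sets of libraries, sums per cultivar and single replicate numbers. The scripts were tested on simulated counts. Permutation tests used 100000 resamples, two-sided, and Python 3.11.15. CPM (reads relative to a common library size after scaling) were computed here from the deposited counts, and levels, ratios and counts of groups that do not overlap are over libraries of at least 1 M reads. The whole-library totals ranged from 362 reads to 59.5 M. The labels give no shared litter, day or batch for a replicate number, so numbers were not taken as pairs. Same-numbered drought and control libraries deviated together at r above 0.1 in 46 of 119 pairs, with a median r of 0.07 and a highest of 0.47. Differently numbered libraries were not compared in this way, so these values cannot decide whether the numbers pair.

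The members, the lists and several of the measures were chosen with earlier results of these data known. Genes to name were all members and, for each, the gene of 5 CPM or more whose drought changes were most similar.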

Additional observations from a re-analysis of the deposited data

How the results depend on the processing

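SPX1 and PAP10a were called lower over the 40 cultivars in each of the 17 alternatives run, SPX1 at -0.51 to -0.33 and PAP10a at -0.46 to -0.31. Of these, leaving out WRC09 and WRC24 and leaving out the high control libraries of WRC48 and WRC50 were chosen after seeing the data. The genes called higher, 1 in the main setting (SPX2), numbered 2 with DESeq2, RLE scaling, a common dispersion, sums per cultivar or libraries of at least 1 M reads, PHO2 being the second, and 0 in replicate number 1 or 3 alone. Without one replicate number they numbered 1, PHO2 in place of SPX2 when number 2 was left out. The sign of PHR2 turned to 0.02 with DESeq2 and RLE and to 0.01 in replicate number 3 alone, none past the threshold. With RLE 68.7% of all called genes were higher, against 49% with TMM.

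Of the 4 pairs of gene and cultivar called lower, 2 were left with each cultivar fitted alone by edgeR. Without one replicate number, 1 to 4 pairs were called lower. The 4 called without number 2 did not include SPX1 in KP (edgeR adjusted p = 0.08). With replicate number as a block 2 pairs were called, and the block changed no call over the 40 cultivars. The response of 1 gene, SPX1, differed among cultivars with RLE, against 0 in the other 9 alternatives run.

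Of the 10 correlations of changes, 10 passed over all libraries, 2 with libraries of at least 1 M reads and 1 to 10 without one replicate number. Signs turned at 1 M reads for SPX1 with PHR2 (-0.38) and with PHO2 (-0.16), SPX2 with PHO2 (-0.34), and PAP10a with PHR2 (-0.29) and with PHO2 (-0.20). Without one replicate number r ran from -0.27 to 0.62 for SPX1 with PHR2, from -0.15 to 0.51 for SPX1 with PHO2 and from -0.35 to 0.60 for SPX2 with PHO2. It ran from -0.03 to 0.86 for PHR2 with PHO2, from -0.22 to 0.79 for PHR2 with PAP10a and from -0.04 to 0.69 for PHO2 with PAP10a. The lowest of each came without replicate number 3, which holds the WRC47 library of 362 reads.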

Other observations

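Levels of the starvation genes were also compared across cultivars within each treatment, in 10 pairs each, chosen after the data were seen. Cultivars can be related by descent, while the permutations treat them as independent. In control leaves SPX1 went with PAP10a (r = 0.48, rho = 0.47) and with SPX2 (r = 0.41, rho = 0.54) over 40 cultivars, with adjusted permutation p values of 0.009 and 0.028 for r. In drought leaves the same pairs stood at r = 0.28 and 0.17, with adjusted permutation p values of 0.21 and 0.50. The high control libraries of WRC50 and WRC48 enter the control values only, and no r of these pairs is given without them. Without WRC44 and WRC47, the cultivars farthest from the median of SPX1 in control leaves, the control r was 0.42 with PAP10a and 0.47 with SPX2. The difference between the treatments was not tested.

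The levels of SPX2 and PHO2 correlated negatively over cultivars, past the threshold for r in both treatments and for rho in control leaves only. Here too the permutations take no account of descent. The values were r = -0.46 in drought leaves (rho = -0.35) and r = -0.54 in control leaves (rho = -0.49), with adjusted permutation p values of 0.014 and 0.0044 for r and 0.14 and 0.0075 for rho. Without the 2 cultivars farthest from the median of SPX2, r was -0.31 in drought and -0.55 in control leaves. Those left out were WRC06 and WRC04 in drought but WRC50 and WRC27 in control leaves, so WRC06 stayed in the control value. WRC06 was highest for PHO2, at 142.0 CPM in drought and 126.0 CPM in control leaves, and had SPX2 at 6.34 CPM in drought and 7.60 CPM in control leaves, among the 4 lowest cultivars in both. WRC50 was highest for SPX2, at 48.6 and 79.3 CPM, and had PHO2 at 90.9 CPM in drought, number 7 of 40, and 60.9 CPM in control leaves. SPX2 and PHR2 stood at r = 0.47 (rho = 0.42) in drought leaves, with adjusted permutation p values of 0.014 and 0.08, and at r = 0.23 in control leaves (rho = 0.17), with 0.34 and 0.60. The difference between the treatments was not tested.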
